A study of Mus musculus with 4 samples.

Results

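Autophagy delivers parts of the cytoplasm to the lysosome for breakdown. A membrane cup, the phagophore, is started by the ULK1 kinase complex and by a lipid kinase that makes PI3P, grows with lipids carried in by ATG2 and ATG9, and is coated with small ubiquitin-like ATG8 proteins (the LC3 and GABARAP families). The closed autophagosome then fuses with the lysosome, an acid compartment whose membrane carries LAMP proteins and whose lumen holds cathepsins and other hydrolases. A growing oocyte lays in stores of mRNA and protein for the embryo, and autophagy is known for its part in the turnover of maternal proteins after fertilisation.

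The 42 genes described here cover this route in 11 groups of roles, from the ULK1 complex to the lysosomal hydrolases and the PIKfyve lipid kinase complex. They were chosen by gene symbol and matched by NCBI gene ID to the table of transcripts, where the values of a gene's transcripts were summed. All 42 were among the 17374 genes listed, and 39 had enough counts to be tested.

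RNA was sequenced from germinal vesicle (GV) stage oocytes of non-primed female mice at postnatal day 16, on a C57/Bl6/DBA2J F1 hybrid background. All oocytes were held in meiotic arrest with milrinone, an inhibitor of phosphodiesterase, and were freed of cumulus cells and of the zona pellucida. The control group, 2 libraries, was not irradiated, and the irradiated group, 2 libraries, received 5 Gy of γ-irradiation from a Cesium-137 source and was collected 24 h later. Each library is a pool of oocytes and not a single cell. The series design text says that cells were sequenced directly or irradiated first. The sources do not say whether the control oocytes spent the same 24 h in culture, so irradiation and time in culture cannot be told apart. In such pools, fewer cells of a type and less RNA per cell cannot be told apart either. The labels do not say whether the replicates came from separate animals. The p-values therefore measure only the spread between these libraries.

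The estimated read counts summed to between 33349466 and 37232818 per library. Irradiated library 2 stood apart from the other 3. The median absolute log2 difference between libraries over all tested genes was 0.126 between the controls and 0.146 and 0.149 between irradiated 1 and each control, but 0.282 to 0.312 between irradiated 2 and each of the others. For the members of the pathway the same distance was 0.117 between the controls, 0.127 and 0.156 for irradiated 1 against the controls, and 0.209 to 0.297 for irradiated 2. Irradiated 1 thus lay closer to the controls than to its own replicate, and the plot of fold changes shows each member with and without irradiated 2. Among the cell type markers, 12 of 12 oocyte genes were present, from 13.4 TPM for Kit to 15620 TPM for Zp3. By gene total 3 of them had a log2 fold change above 0 and 9 below, where 51.4% of all genes tested were above 0. Their median was -0.24, or -0.01 without irradiated 2. Zp2 was at 4290 and 4452 TPM in the controls, 4115 in irradiated 1 and 1937 in irradiated 2. Nobox went the other way, at 398 and 440 TPM in the controls, 468 in irradiated 1 and 1215 in irradiated 2. TPM is a level corrected for transcript length, with an equal sum in every library. Of the granulosa and cumulus markers, 8 of 12 were among the genes listed, and Amh, Foxl2, Fst and Amhr2 were not. Those listed had summed levels of 16.8 and 19.1 TPM in the controls and 16.7 and 22.3 TPM after irradiation. Most of this sum came from Cyp19a1 at 8.79 to 10.2 TPM, Nr5a2 at 3.53 to 7.43 TPM, Fshr at 1.66 to 2.89 TPM and Kitl at 1.45 to 2.07 TPM, while Inha, Inhba, Gja1 and Hsd17b1 were at 0 to 0.31 TPM. The part of these cells in the results was not tested. Of the macrophage and leukocyte markers, 4 of 8 were among the genes listed, and Ptprc, Lyz2, Adgre1 and Cd14 were not. Those listed had summed levels of 1.74 and 1.64 TPM in the controls and 2.01 and 3.53 TPM after irradiation. Most of this was Cd68, while Csf1r, Itgam and Tyrobp were at 0 to 0.1 TPM.

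Many lysosomal genes carry a palindromic E-box, CACGTG, near their start, the core of the element bound by TFEB and its relatives TFE3 and MITF. The 250 bases before the gene start held these letters, which read the same on both strands, in 6.86% of 27025 genes in the RefSeq promoters of GRCm38.p6. That set is larger than the 17374 genes listed here, and the share among the listed genes alone was not worked out. Of the 35 members with an entry, 7 held the letters: Lamp1, Ctsd, Ctsl, Glb1, Atg3, Atg5 and Atg7. These are 4 of the 5 lysosomal membrane and hydrolase members with an entry, and 3 of the 26 autophagy members. The stretches of Lamp1 and Glb1 are shown because they carry these core letters. The CACGTG letters are in capitals, and each line runs 5′ to 3′ on the plus strand, which is the strand of both genes, at chr8:13159073-13159160 for Lamp1 and chr9:114401003-114401062 for Glb1.
Lamp1: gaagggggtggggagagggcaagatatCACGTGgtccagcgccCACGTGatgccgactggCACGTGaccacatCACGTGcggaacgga
Glb1: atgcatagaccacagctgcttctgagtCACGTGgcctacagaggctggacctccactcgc
Lamp1 held the letters 4 times, 15 to 61 bases before its start, and Glb1 once, 48 bases before. Ctsd held them 2 times, the nearer one 98 bases before its start. In Ctsl they stood 236 bases before a start that lies inside the annotated gene. A match is a description of these windows and does not show that a factor bound there. Tfeb itself was close to absent, at 0.01 and 0.02 TPM in the controls and 0.02 TPM in both irradiated libraries. Its relative Tfe3 was at 6.02, 6.58, 6.88 and 10.95 TPM in control 1, control 2, irradiated 1 and irradiated 2, and Mitf at 0.52, 0.68, 0.57 and 1.18 TPM.

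Most of the pathway was present in the GV oocyte, and a few genes made up most of its mRNA. The median of the members' mean TPM was 6.78, the 70.0th percentile of all listed genes, against a median of 1.41 TPM over all genes. In all, 34 members had a mean of 1 TPM or more, a level reached by 54.3% of all listed genes, and 8 had 50 TPM or more. Atg5, the scaffold of the conjugation enzyme that attaches ATG8 proteins to lipid, was the highest, at 278, 283, 275 and 252 TPM. Its range did not overlap that of any other member. Atg101, Ctsb and Lamp1 followed with overlapping ranges of 110 to 172, 95.4 to 183 and 98.0 to 150 TPM. Then came Gabarapl2, Atg12, Map1lc3b and Map1lc3a, at 75.9 to 91.3, 72.2 to 85.6, 57.8 to 80.8 and 36.1 to 79.2 TPM, whose ranges also overlapped from neighbour to neighbour. At the other end, Ulk1, Ulk2, Wipi1, Atg9a and Atg4c had means between 0.28 and 0.81 TPM, and Tfeb, Gabarapl1 and Atg4d had means of 0.05 TPM or less. These last 3 were left out of the test for low counts. Their read counts were 1 to 2, 0 to 4 and 1 to 4 in the 4 libraries, so no difference could be seen at this depth.

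**Figure D1:**
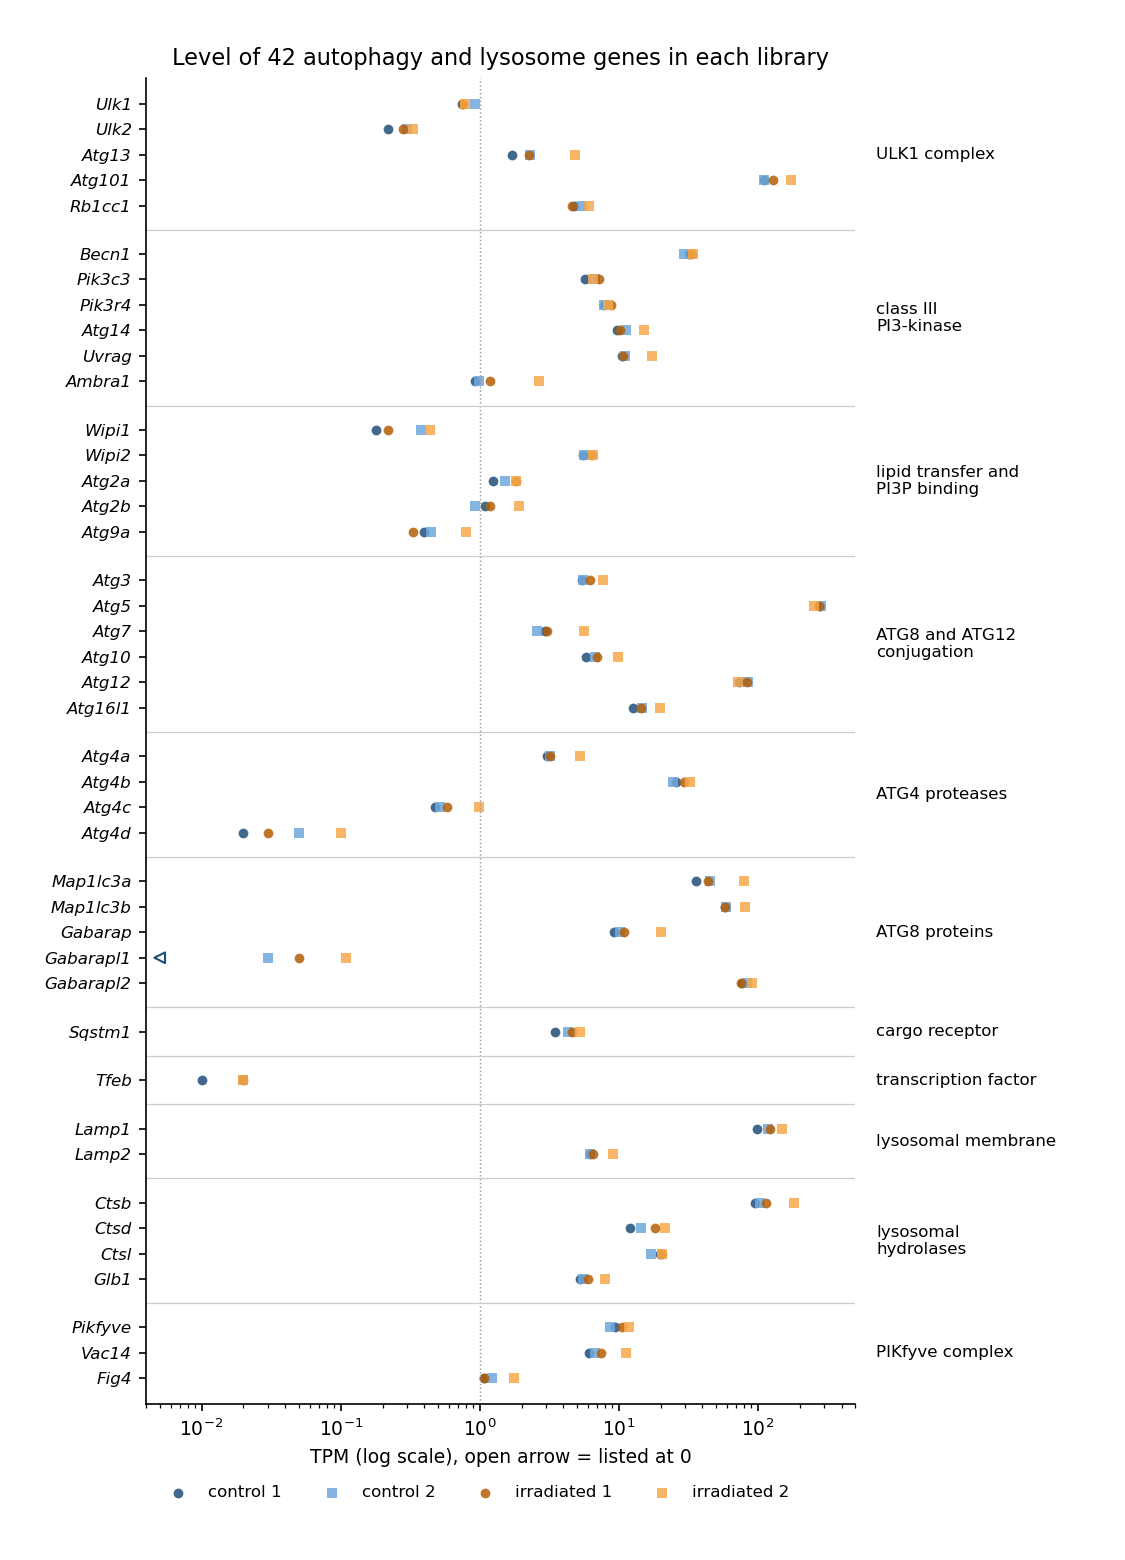
TPM (log axis) of the 42 autophagy and lysosome genes in the 4 libraries, with 1 point per library, grouped by role, and a dotted line at 1 TPM. Atg5 lies highest at 252 to 283 TPM, Tfeb, Gabarapl1 and Atg4d lie at 0.11 TPM or less, and the point of irradiated 2 is often the rightmost.

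The comparison of irradiated with control oocytes asks whether acute γ-irradiation changed the mRNA of these genes. By gene total, 0 of the 39 tested members passed the limits, a log2 fold change beyond 2 in either direction with an adjusted p under 0.05, where 0.00796% of the 12569 genes tested did (quasi-likelihood test of edgeR, p adjusted by Benjamini-Hochberg). None had an adjusted p under 0.05 at any fold in that test, with the smallest adjusted p at 0.708. Without adjustment 2 had a p under 0.05, Ambra1 and Ctsd, both higher in irradiated oocytes, against 5.92% of all genes in either direction and 4.63% with a higher value. The log2 fold change was above 0 for 29 members and below 0 for 10, with a median of 0.104. Over all genes tested 51.4% were above 0, and the median was 0.0102. Both irradiated libraries lay above both controls in 14 members, against 22.1% of all genes, and both lay below in 4, against 19.9%. Without irradiated 2 the median of the members was 0.131, with 28 above 0, but 13 members then had the other sign. Over all genes that fit had a median of 0.0026, with 50.5% above 0. Without irradiated 1 the median of the members was 0.106, with 25 above 0 and 4 of the other sign. Over all genes it was 0.0130, with 51.2% above 0.
The count at an adjusted p under 0.05 depended on which irradiated library was used. Without irradiated 1, the test called 15 of the 39 members at an adjusted p under 0.05, where it called 34.3% of all genes. Without irradiated 2 it called 1 member, Ctsd, where it called 0.791% of all genes. In both fits the lone irradiated library was assumed to vary like the controls.

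**Figure D2:**
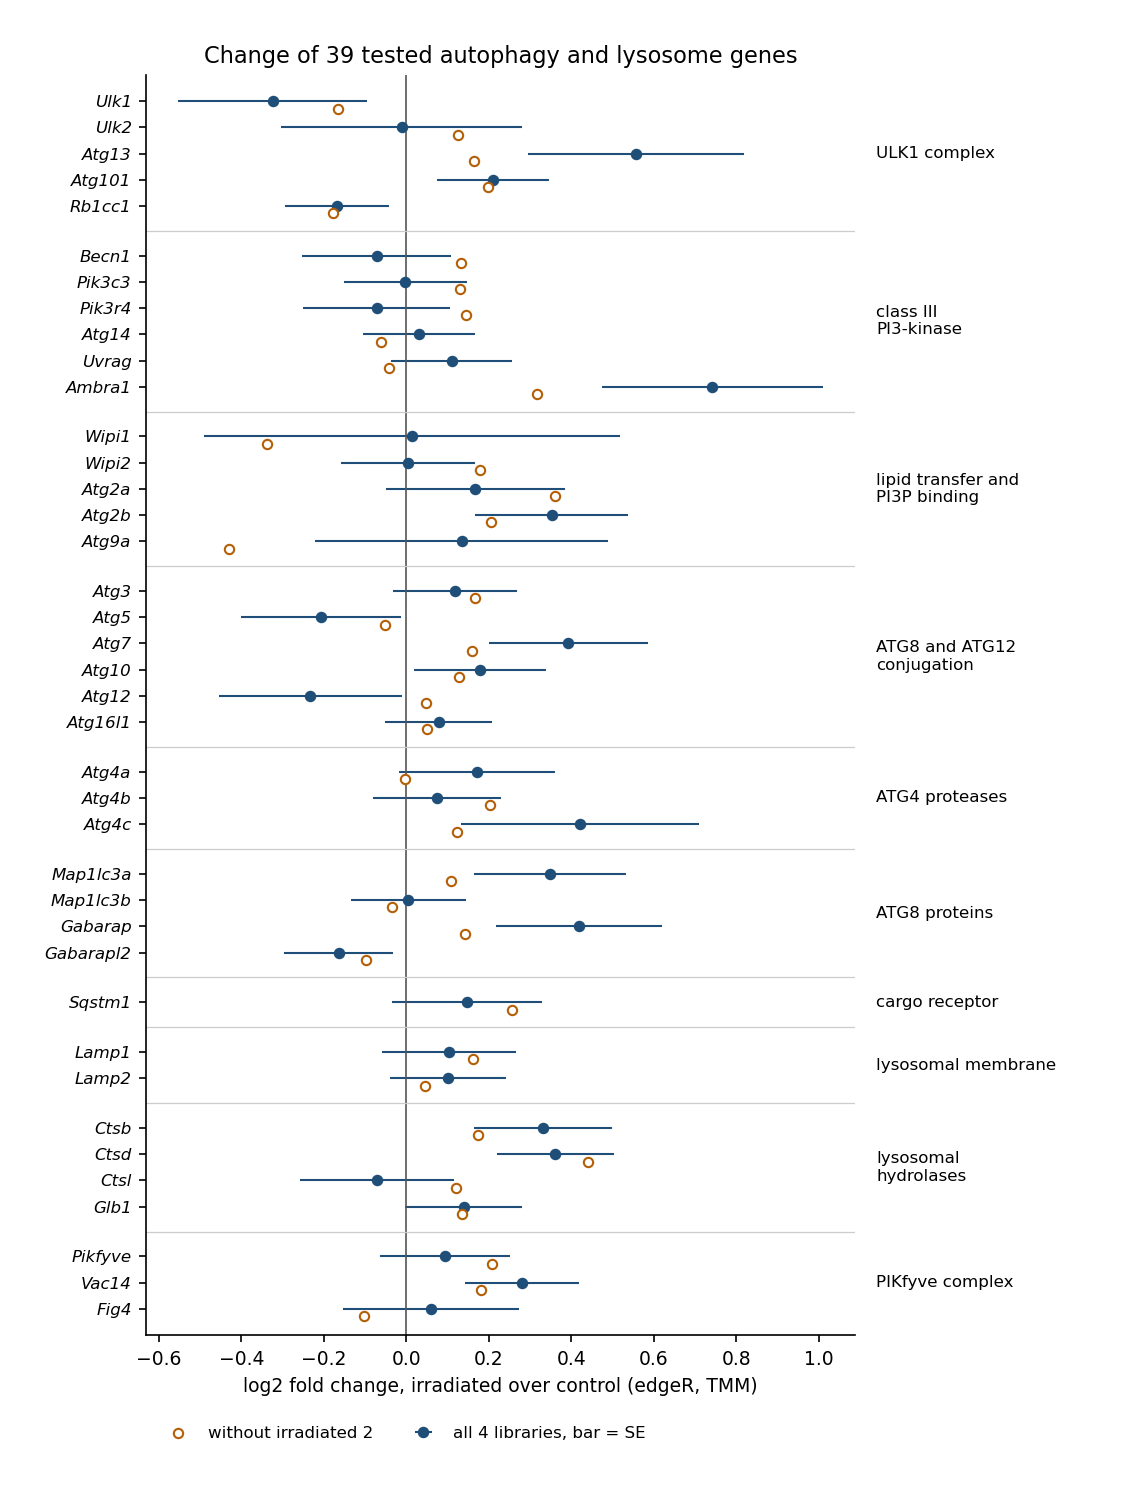
Log2 fold change of the gene total, irradiated over control, for the 39 tested members grouped by role. Filled points with a bar of 1 approximate standard error are from all 4 libraries and open points from the fit without irradiated 2. The values run from -0.32 for Ulk1 to 0.74 for Ambra1.

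The ULK1 complex, a kinase with the adaptors ATG13, ATG101 and FIP200 (Rb1cc1), starts the phagophore. Its members did not move one way, with log2 fold changes above 0 for 2 and below 0 for 3. Values per library are given here as CPM, read counts scaled to a common library size with TMM factors, in the order control 1, control 2, irradiated 1, irradiated 2. Atg13 was at 4.60, 5.81, 5.83 and 9.44 CPM. Only irradiated 2 stood clear of the other libraries, and the log2 fold change of 0.56 (SE 0.263, adjusted p = 0.708 in the quasi-likelihood test of edgeR) was 0.17 without it. Ulk1, the kinase, was at 2.50, 2.92, 2.42 and 1.93 CPM. The irradiated libraries lay just below the controls, at a log2 fold change of -0.32 (SE 0.229, adjusted p = 0.720 in the same test) that was -0.16 without irradiated 2 and -0.50 without irradiated 1. Rb1cc1 was at 25.2, 26.9, 23.0 and 23.3 CPM, with both irradiated libraries below both controls. Its log2 fold change of -0.17 (SE 0.126, adjusted p = 0.729, same test) changed sign on the TPM scale, where the means were 5.13 TPM in control and 5.38 TPM in irradiated oocytes. Atg101, by far the most abundant member of the complex, was at 91.7, 86.9, 102 and 104 CPM, a log2 fold change of 0.21 (SE 0.136). Ulk2 overlapped between the groups at 0.960 to 1.26 CPM.

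The class III PI3-kinase complex, VPS34 (Pik3c3) with VPS15 (Pik3r4), Beclin 1 (Becn1) and either ATG14 or UVRAG, makes PI3P. All of these 5 overlapped between the groups, with log2 fold changes from -0.07 for Becn1 and Pik3r4 to 0.11 for Uvrag. All 5 had the other sign without irradiated 2, at 0.13 for Becn1, 0.15 for Pik3r4 and -0.04 for Uvrag. Becn1 was the most abundant at 29.6 to 34.4 TPM, with Uvrag at 10.6 to 17.3, Atg14 at 9.76 to 15.3, Pik3r4 at 7.80 to 8.78 and Pik3c3 at 5.71 to 7.22 TPM. Ambra1, a scaffold that binds Beclin 1 and regulates the complex, had the largest log2 fold change of all members. It was at 3.52, 3.51, 4.38 and 7.33 CPM, or 121, 114, 145 and 300 reads. Both irradiated libraries lay above the nearly equal controls, but irradiated 1 by much less than irradiated 2. The log2 fold change was 0.74 (SE 0.268), with an unadjusted p of 0.0280 and an adjusted p of 0.708 in the quasi-likelihood test of edgeR, and without irradiated 2 it was 0.32. Ambra1 lies at chr2:91730138-91918849 of GRCm38.p6, close to Atg13 at chr2:91674612-91710597, the member with the next largest value. Whether their position bears on these values was not tested.

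Lipid transfer and PI3P binding were represented by Wipi1 and Wipi2, which read PI3P, Atg2a and Atg2b, which carry lipids, and Atg9a, the scramblase of the phagophore. These 5 were among the scarcer members, with means of 0.305 TPM for Wipi1, 0.495 for Atg9a, 1.28 for Atg2b, 1.60 for Atg2a and 6.02 for Wipi2. All 5 had a log2 fold change above 0, from 0.0045 to 0.35, but 2 of them, Wipi1 and Atg9a, were below 0 without irradiated 2, at -0.34 and -0.43. Only Atg2b had both irradiated libraries above both controls, at 8.76, 6.95, 9.06 and 11.0 CPM, and its log2 fold change of 0.35 was 0.20 without irradiated 2.

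The conjugation system joins ATG12 to ATG5 and ATG8 proteins to phosphatidylethanolamine, with ATG7 as the activating enzyme, ATG3 and ATG10 as the conjugating enzymes and ATG16L1 as the partner of ATG5. Its 2 abundant mRNAs had values below the controls in irradiated 2. Atg5 was at 376, 368, 359 and 286 CPM, with both irradiated libraries below both controls. Its log2 fold change of -0.21 (SE 0.194, adjusted p = 0.752, the quasi-likelihood test of edgeR) was -0.05 without irradiated 2. Atg12 was at 134, 146, 145 and 93.9 CPM, so that irradiated 1 lay within the range of the controls. Its log2 fold change of -0.23 (SE 0.222, adjusted p = 0.755, same test) turned to 0.05 without irradiated 2. The activating enzyme Atg7 was at 6.78, 6.25, 7.28 and 9.80 CPM, with both irradiated libraries above the controls and a log2 fold change of 0.39 (SE 0.194, adjusted p = 0.708, same test) that was 0.16 without irradiated 2. Atg3, at 5.43 to 7.71 TPM, and Atg10, at 5.80 to 9.81 TPM, also did not overlap in CPM, with log2 fold changes of 0.12 (SE 0.151) and 0.18 (SE 0.159). Atg16l1 overlapped, at 29.1 to 32.8 CPM.

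ATG4 proteases trim ATG8 proteins before conjugation and release them afterwards. Atg4b was the main one, at 25.9, 24.5, 29.5 and 32.4 TPM, followed by Atg4a at 3.07 to 5.26 TPM and Atg4c at 0.480 to 0.990 TPM. Atg4c was at 1.19, 1.08, 1.24 and 1.78 CPM, where irradiated 1 barely exceeded control 1, and its log2 fold change was 0.42 (SE 0.288, adjusted p = 0.714, the quasi-likelihood test of edgeR). Without irradiated 2 it was 0.12. Atg4b and Atg4a overlapped between the groups, at log2 fold changes of 0.07 and 0.17, and Atg4a was at -0.0033 without irradiated 2.

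Of the ATG8 proteins, the oocyte held mainly mRNA of Gabarapl2, Map1lc3b and Map1lc3a, less of Gabarap at 9.27 to 20.3 TPM, and almost none of Gabarapl1. Gabarap was at 6.90, 7.17, 7.76 and 11.0 CPM, a log2 fold change of 0.42 (SE 0.202, adjusted p = 0.708, the quasi-likelihood test of edgeR) that was 0.14 without irradiated 2. Gabarapl2 went the other way, at 48.9, 49.9, 46.2 and 42.0 CPM, with both irradiated libraries below the controls. Its log2 fold change of -0.16 (SE 0.132, adjusted p = 0.735, same test) was -0.10 without irradiated 2 and changed sign on the TPM scale, where the means were 80.5 TPM in control and 83.6 TPM in irradiated oocytes. Map1lc3b, the LC3 most used as a marker of autophagosomes, was nearly level at 105, 99.7, 99.8 and 106 CPM, a log2 fold change of 0.0049 (SE 0.139). Map1lc3a overlapped at 24.6, 29.2, 29.0 and 39.4 CPM, with a log2 fold change of 0.35 that was 0.11 without irradiated 2. Sqstm1 (p62), the receptor that ties ubiquitinated cargo to LC3, was at 5.06, 5.81, 6.49 and 5.57 CPM, which also overlap, and had a log2 fold change of 0.15 (SE 0.182) that was 0.26 without irradiated 2.

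The lysosomal members were led by Ctsb, a cysteine cathepsin, and Lamp1, a membrane glycoprotein, and 5 of the 6 had a log2 fold change above 0. Ctsd, the aspartic cathepsin, was at 16.5, 18.9, 23.97 and 21.5 CPM. Both irradiated libraries lay above both controls, irradiated 1 by more than irradiated 2. The fold change of the means was 1.29, from 17.7 ± 1.74 to 22.7 ± 1.74 CPM (SD, n = 2 libraries each). On the log2 scale the change was 0.36 (SE 0.142), with an unadjusted p of 0.0390 and an adjusted p of 0.708 in the quasi-likelihood test of edgeR. It was 0.44 without irradiated 2 and 0.27 without irradiated 1, with adjusted p-values of 0.0163 and 0.0428 in that test, whereas leaving out either control gave 1.0. Over all other alternatives the adjusted p of Ctsd ran from 0.455 to 0.999. Ctsb was at 139, 140, 157 and 193 CPM, with a log2 fold change of 0.33 (SE 0.167) that was 0.17 without irradiated 2. Glb1, the lysosomal β-galactosidase whose activity is stained as a mark of senescent cells, was at 9.25, 9.17, 10.1 and 10.2 CPM. Both irradiated libraries lay above both controls, as in 22.1% of all genes tested. The log2 fold change was 0.14, no larger than its SE of 0.141, and 1.10-fold on the means. Lamp2 also had both irradiated libraries above both controls, at 10.6, 10.5, 10.9 and 11.8 CPM, with a log2 fold change of 0.10 (SE 0.140). Lamp1 and Ctsl, the latter at 17.1 to 20.5 TPM, overlapped, with log2 fold changes of 0.10 and -0.07, or 0.16 and 0.12 without irradiated 2. The summed level of the 6 lysosomal members was 237, 265, 288 and 391 TPM in the 4 libraries. On the TPM scale, however, 80.3% of all tested genes were higher after irradiation in log2(TPM + 1), with a median shift of 0.145 over all genes against 0.284 for the members.

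The PIKfyve complex, a kinase that makes PI(3,5)P2 on lysosomes, was held by Pikfyve itself at 8.59 to 11.9 TPM, its scaffold Vac14 at 6.12 to 11.2 TPM and the phosphatase Fig4 at 1.08 to 1.77 TPM. Vac14 did not overlap between the groups, at 14.2, 14.8, 16.5 and 18.8 CPM, with a log2 fold change of 0.28 (SE 0.139) that was 0.18 without irradiated 2. Pikfyve and Fig4 overlapped, at log2 fold changes of 0.09 and 0.06, or 0.21 and -0.10 without irradiated 2.

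**Figure D3:**
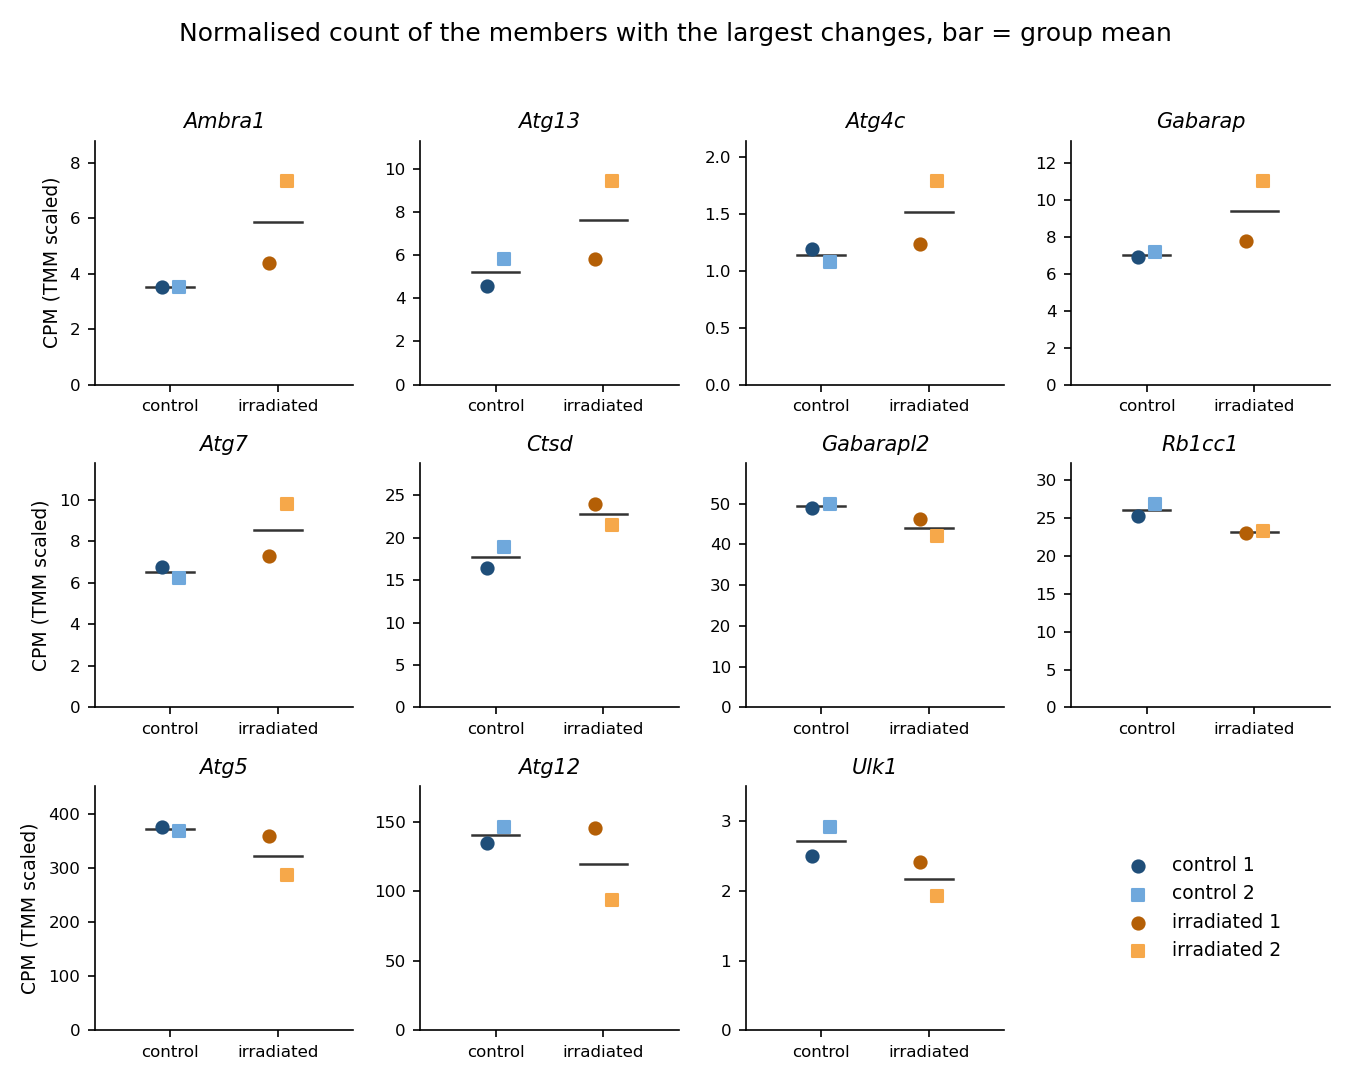
CPM after TMM scaling in each library (points) and the group means (lines) for the 6 members with the highest and the 5 with the lowest log2 fold change among those named with full statistics, each axis starting at 0. In Ambra1, Atg13, Atg4c, Gabarap, Atg7 and Ctsd both irradiated libraries lie above both controls. Irradiated 2 is the higher of the irradiated libraries in all of these but Ctsd, where irradiated 1 is.

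Gene totals do not show how reads were divided among transcripts, and the table lists 108 transcripts for the 42 members. Of these, 60 are known RefSeq transcripts (NM_) and 48 predicted ones (XM_), and 12 members have a single transcript. Only 60 transcripts had more than 3 counts in all 4 libraries, while 43 had them in 1 to 3 libraries and 5 in none. Of the 80 tested, 0 passed both limits, where 0.0% of all 26645 transcripts did, with 0.777 as the smallest adjusted p (quasi-likelihood test of edgeR, p adjusted by Benjamini-Hochberg). Without adjustment 4 had a p under 0.05, against 4.9% of all transcripts. DESeq2 called 3 of the 87 to which it gave an adjusted p, against 0.862% of all. The exact test of edgeR called 2 of the 80, where it called 247 of all 26645 transcripts.

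The 3 called by DESeq2 each had no counts in at least 2 libraries. Transcript NM_001080754.1 of Ambra1 had 0 and 0 counts in the controls and 103 and 81 after irradiation, at least 28.6-fold higher against a floor of 3 counts per library. Its adjusted p was 0.000577 in DESeq2, 0.000411 in the exact test and 0.777 in the quasi-likelihood test of edgeR. The other Ambra1 transcripts were spread just as unevenly. Predicted transcript XM_006499253.2 held all reads of both controls, at 121 and 114, none of irradiated 1 and 150 of irradiated 2. The irradiated libraries each held a further transcript that the other lacked, NM_172669.3 with 42 counts in irradiated 1 and XM_006499252.2 with 68 in irradiated 2.
Transcript XM_006529793.3 of Atg4b had 0 and 0 counts in the controls and 110 and 98 after irradiation, at least 32.2-fold higher, with an adjusted p of 0.000266 in DESeq2, 8.6e-05 in the exact test and 0.777 in the quasi-likelihood test. The main transcript of this protease, NM_174874.4, was at 2083, 1771, 2098 and 2152 counts.
For Pikfyve, XM_030252267.1 had 340 counts in control 2 and 0 in the other 3 libraries. The call by DESeq2, with an adjusted p of 0.000369, thus rested on control 2 alone, the sole library in which the transcript was seen. The filter of edgeR left it out, and without the filter its quasi-likelihood test gave an adjusted p of 0.920.

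Transcript NM_001253717.1 of the activating enzyme Atg7 had 0 and 0 counts in the controls and 59 and 25 after irradiation, at least 13.4-fold higher, with an adjusted p of 0.0820 in DESeq2 and 0.777 in the quasi-likelihood test of edgeR. Transcript NM_029846.4 of Atg16l1 was present in every library, at 94, 74, 40 and 50 counts. It had a log2 fold change of -1.03 (SE 0.350), an unadjusted p of 0.0465 and an adjusted p of 0.996 in the quasi-likelihood test of edgeR. The other transcript of the gene, NM_001205392.1, was far more abundant, at 905, 960, 1004 and 1291 counts. Shifts of this kind also stood between replicates. Atg2b, chosen after its values were seen, had 0 and 226 counts of NM_029654.4 and 301 and 0 counts of XM_006516360.2 in controls 1 and 2.
Isoform usage, the share of a gene's reads held by each transcript, was tested in 27 members with at least 2 tested transcripts. None passed an adjusted p of 0.05, where 0.253% of 6323 genes did (edgeR's diffSpliceDGE with Simes' method), and 1 member, Atg4b, had an unadjusted p under 0.05, against 6.12% of those genes. For Atg4b the p was 0.000230 and the adjusted p 0.0643 with Simes' method, 0.0432 with the F test of diffSpliceDGE and 0.623 with limma's diffSplice.

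**Figure D4:**
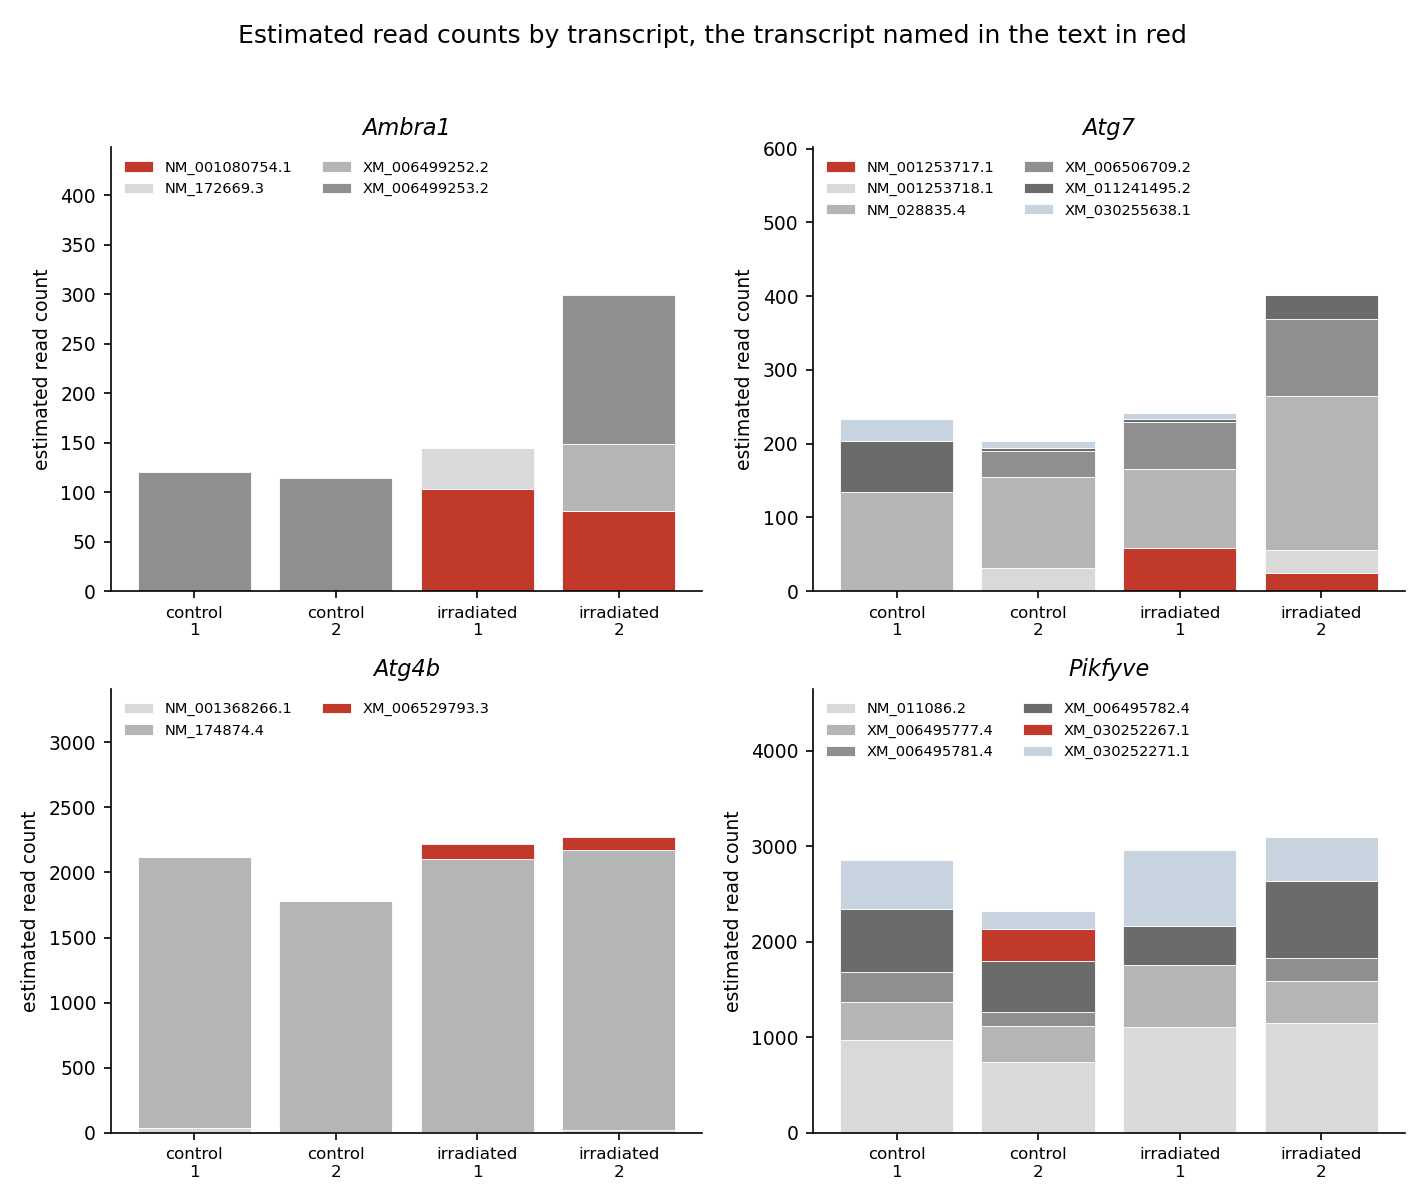
Estimated read counts of each transcript, stacked to the total of the gene, in the 4 libraries for Ambra1, Atg7, Atg4b and Pikfyve. The red transcript of Ambra1, Atg7 and Atg4b is present in both irradiated libraries and neither control, and that of Pikfyve in control 2 alone.

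A further 97 genes of the same pathway that are not members were examined, of which 95 were among the genes listed and 82 were tested. None had an adjusted p under 0.05 in the quasi-likelihood test of edgeR, and 4 had an unadjusted p under 0.05, all higher, against 4.63% of all genes. The log2 fold change was above 0 for 55, with a median of 0.121, which was 0.0082 with 44 above 0 when irradiated 2 was left out. The 16 subunits of the V-ATPase, the pump that acidifies the lysosome, were abundant, with a median of 113 TPM. They were split evenly, 8 above and 8 below 0. Atp6v0d1, a subunit of the membrane part of the pump, was at 17.1, 17.4, 20.9 and 43.4 CPM. Irradiated 2 alone was far from the controls, and the log2 fold change of 0.90 (SE 0.311, adjusted p = 0.708 in the quasi-likelihood test of edgeR) was 0.27 without it.
Among the other lysosomal hydrolases, 20 of the 22 tested had a log2 fold change above 0, with a median of 0.21. Without irradiated 2 this was 14 of 22 and a median of 0.05. A further 9 hydrolases were too scarce to test, among them Ctsk, Ctss, Ctsc and Lipa at 0.18 TPM or less. Arsb, which removes sulfate from dermatan and chondroitin sulfate, was at 1.02, 1.17, 1.72 and 2.00 CPM, with both irradiated libraries above the controls. Its log2 fold change was 0.77 (SE 0.252, adjusted p = 0.708, same test) and 0.65 without irradiated 2. The other selective autophagy receptors had 7 of 12 above 0. Of these, Calcoco1, a receptor for the endoplasmic reticulum, was at 4.89, 5.05, 7.52 and 6.75 CPM. Its libraries did not overlap, and the log2 fold change was 0.52 (SE 0.168, adjusted p = 0.708, same test) and 0.60 without irradiated 2. Genes of autophagosome-lysosome fusion had 8 of 12 above 0, lysosomal membrane, carrier and sorting proteins 6 of 11, and other regulators 6 of 9, with medians of 0.06, 0.04 and 0.12.

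Some totals may be less certain than others. Of the 42 members, 19 overlap the span of another gene in the RefSeq annotation, among them Atg5, Atg12, Ctsb and Map1lc3b. The spans include introns, and whether exons are shared was not checked. The strand setting of the counting is not given in the sources used here, so reads from any shared exon cannot be assigned by strand. The total was off a whole number by more than 0.05 in at least 1 library for 7 members and in all 4 libraries for Pik3c3 and Ctsl.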

How the data were processed

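Poly(A) RNA from pools of GV oocytes was sequenced in 4 libraries with paired-end reads of 100 bases. Per the paper's methods, the authors aligned the reads to GRCm38 with Bowtie2, and the submitters' processing notes also list mm10, HISAT2 and RSEM without roles or versions. The annotation release is not given in the sources used here. The deposited table holds, per RefSeq transcript and library, an unscaled estimated count and a TPM value, both made by the authors. Reads had already been shared among transcripts, and the error of that sharing enters the count of a transcript. Summing over a gene removes it for reads shared within the gene but not for reads shared between genes. A further 10 columns, 4 of FPKM and 6 of the authors' averages, were not used.

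Counts were summed per gene ID, rounded and compared by the quasi-likelihood test of edgeR 4.0.16 (glmQLFit and glmQLFTest, R 4.3.3) after TMM scaling and a filterByExpr minimum of 10 counts, with group as the sole term. P-values were adjusted by Benjamini-Hochberg over the whole table. Each SE is approximate, the size of the log2 fold change divided by the square root of the F statistic of the test. Features were called at a log2 fold change beyond 2 in either direction with an adjusted p under 0.05. The TMM factors of the gene totals were 0.923, 0.975, 0.937 and 1.19, in the order control 1, control 2, irradiated 1, irradiated 2. Isoform usage was tested with diffSpliceDGE. DESeq2 1.42.0, edgeR's exact test and limma 3.58.1 were alternatives. Levels between genes were compared in TPM and libraries within a gene in CPM. A fold against libraries at 0 is a lower bound against 3 counts per library. Of 17374 gene IDs, 17323 matched RefSeq of GRCm38.p6, the source of coordinates and promoters. The fits were also run on simulated counts with known changes. Those counts held no library set apart like irradiated 2, so that check does not cover its effect.

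The members, gene lists and tests were chosen with earlier results of these data known. Every member is named with its level. Full statistics are given for members with an unadjusted p under 0.05 and for the 5 highest and 5 lowest log2 fold changes. Of the transcripts, those called by edgeR or DESeq2 or with an unadjusted p under 0.05 in edgeR are named, and of the further pathway genes up to 3 in each direction with the smallest unadjusted p under 0.05. Plots were made in Python 3.11.15 with matplotlib 3.10.9.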

Additional observations from a re-analysis of the deposited data

How the results depend on the processing

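Of the 143 values of named members under alternatives, 138 kept the direction of the log2 fold change, 5 had the other one and 0 passed both limits. The 5 were Atg12 at 0.0481 without irradiated 2, where leaving out 1 library gave -0.5916 to 0.0481, and Rb1cc1 at 0.0494 and 0.0562 and Gabarapl2 at 0.0493 and 0.0498 in limma on log2(TPM + 1) and log2(TPM + 0.1). The cause was not tested. Of all genes, 1 passed both limits, and the count was 3 without the low-count filter, 4 in DESeq2, 10 in the exact test, 0 with library size alone, in limma-voom and in limma on either TPM scale, and 16 to 84 when 1 library was left out, the highest without irradiated 1. The members with an adjusted p under 0.05 at any fold were 0 in the quasi-likelihood test of edgeR, with 2 at an unadjusted p under 0.05, and 0 to 15 when 1 library was left out. They were 15 without irradiated 1 and 1 without irradiated 2.

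Transcripts past both limits were 0 in the quasi-likelihood test of edgeR, with 1306 at an unadjusted p under 0.05, 248 in DESeq2 and 247 in the exact test, and those of members 0, 3 and 2. Isoform usage passed in 16 genes with Simes' method, 58 with the F test and 0 with limma's diffSplice, and in 0 members, or 1 with the F test. The median log2 fold change of the members, 0.104, was 0.267 with library size alone, 0.284 and 0.317 in log2(TPM + 1) and log2(TPM + 0.1), and 0.101 to 0.141 when 1 library was left out. Library size alone moved the median of all genes to 0.172, and both TPM scales moved it to 0.145 and 0.214. Relative to the median of all genes, 25 to 28 of the 39 members lay above it in every setting that kept the filter.

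With the replicate number as a block (replicate block), 7 genes passed both limits, 3 genes passed in isoform usage and 0 members were called at either level. Deviations of same-numbered libraries correlated at 0.115 over genes and 0.0238 over transcripts. The methods name independent experimental replicates, so the numbers may mark experiments, but the labels do not tie them to a shared batch, and 2 pairs are too few to settle it. With 2 libraries per group the data could not show small changes, and read counts of Tfeb, Gabarapl1 and Atg4d were too low to compare.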
